A study of Mus musculus with 6 samples.

Results

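Adipocyte marker transcripts were measured in heart tissue as a readout of fat attached to the heart. They are the 10 genes Adipoq, Plin1, Fabp4, Cidec, Retn, Cfd, Lep, Car3, Pck1 and Scd1, chosen by symbol from the 24404 genes of the count table, and each has a row there. Reads per gene were counted in 3 heart samples labelled KO-TAC, from mice of genotype miR-204-/-, and 3 labelled WT-TAC, from wild-type mice. All 6 samples came from mice in which transaortic constriction had been done 5 weeks earlier. This operation tightens a band around the aorta and raises the pressure the heart pumps against. No unoperated hearts were analysed here, so both genotypes carry the surgery and every comparison is between genotypes after it. The labels call the tissue heart, without naming chambers, strain, age or the number of animals behind a sample, and they do not say how fat or vessels were trimmed. Nothing in them says that replicates are separate animals, so p-values measure only the spread between these samples.

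Adipocytes store triglyceride in 1 large droplet in white fat, or in many small ones in brown fat, which burns fatty acids for heat. Fat cells lie on the surface of the heart and around the aorta, and in mice the fat around the thoracic aorta resembles brown fat. Their droplet proteins and secreted hormones are made by few other cells, whereas several of their lipid-handling genes are also used by capillary endothelium, muscle, liver or heart muscle itself.

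Totals ran from 6609315 to 8494415 counts in KO-TAC and from 6411538 to 8571737 in WT-TAC. Ventricular myocyte markers, which check the label heart, had a summed 147725 to 226865 CPM in KO-TAC and 166070 to 184427 CPM in WT-TAC over 10 genes (CPM, counts scaled to a common library size after TMM scaling). The deleted gene Mir204 had 0 counts in all 3 KO-TAC libraries and in all 3 WT-TAC libraries, so it does not check the genotype labels here. A library with no count of a gene allows up to 0.364 to 0.443 CPM in KO-TAC and 0.344 to 0.471 CPM in WT-TAC, the level of 3 counts. The column taken as KO-TAC replicate 3 carries the number that the labels give to WT-TAC replicate 3 beside its own library index. Over genes with enough counts in the pair compared, these 2 libraries were the most alike of the 15 library pairs. Their median chi-square per gene was 2.999, against 3.82 to 7.12 in the other pairs. These libraries also had the highest correlation between genotypes of deviations from the group means, over tested genes (r = 0.257). In the fat genes they differ, with 20 counts of Adipoq, Plin1 and Cidec together in KO-TAC replicate 3 and 204 in WT-TAC replicate 3. Whether the column holds KO-TAC replicate 3 was not settled by these values. KO-TAC replicate 1 and WT-TAC replicate 3 stand apart from the other libraries in fat transcripts, and results are given with and without them.

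The 3 markers most restricted to fat were highest in KO-TAC replicate 1 among KO-TAC libraries and in WT-TAC replicate 3 among WT-TAC libraries. Adipoq encodes adiponectin, a hormone secreted by adipocytes, and lies on chromosome 16 from 23146536 to 23158028 (GRCm38, plus strand). It had 34, 0 and 0 counts in KO-TAC replicates 1 to 3 and 0, 0 and 39 in WT-TAC replicates 1 to 3. In CPM this was 4.96 in KO-TAC replicate 1 and 5.33 in WT-TAC replicate 3. Adipoq in KO-TAC replicate 1 was 11.2 times the floor of 3 counts in the other KO-TAC libraries, taking the higher of their floors. In WT-TAC replicate 3 it was 11.3 times that floor in the other WT-TAC libraries. These ratios leave out the counting error of the 34 and 39 counts. Plin1, on chromosome 7 from 79720218 to 79732903 (minus strand), encodes perilipin, the coat protein that guards the droplet from lipases. It stood at 6.85, 3.52 and 1.18 CPM in KO-TAC and at 0, 0 and 11.6 CPM in WT-TAC. Every KO-TAC library had some Plin1, from 8 to 47 counts, whereas 2 of 3 WT-TAC libraries had none. Cidec, on chromosome 6 from 113424634 to 113435760 (minus strand), encodes a protein that fuses droplets and so makes them large. Its levels were 5.83, 1.33 and 1.77 CPM in KO-TAC and 0.157, 0 and 10.9 CPM in WT-TAC, with 12 counts in KO-TAC replicate 3 and 1 in WT-TAC replicate 1.

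Summed over Adipoq, Plin1 and Cidec, KO-TAC libraries had 17.6, 4.85 and 2.95 CPM and WT-TAC libraries 0.157, 0 and 27.9 CPM. The exact 95% Poisson intervals, which cover counting error only, were 14.6 to 21.1, 3.47 to 6.61 and 1.80 to 4.56 CPM in KO-TAC and reached at most 0.875 and 0.423 CPM in WT-TAC replicates 1 and 2. The mean was 8.48 ± 7.99 CPM in KO-TAC and 9.34 ± 16.0 CPM in WT-TAC (SD, n = 3 each), a ratio of 0.908. The groups overlapped because WT-TAC replicate 3 lay above every KO-TAC library and the other 2 WT-TAC libraries below every one. Over KO-TAC replicates 2 and 3 these genes had 60 counts, against 1 count over WT-TAC replicates 1 and 2. These 4 libraries are those left once the highest library of each genotype for the same 3 genes is set aside, a choice made from the values, so the counts are a description and no comparison of genotypes. In bulk tissue, fewer fat cells and less RNA per fat cell cannot be told apart.

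**Figure D1:**
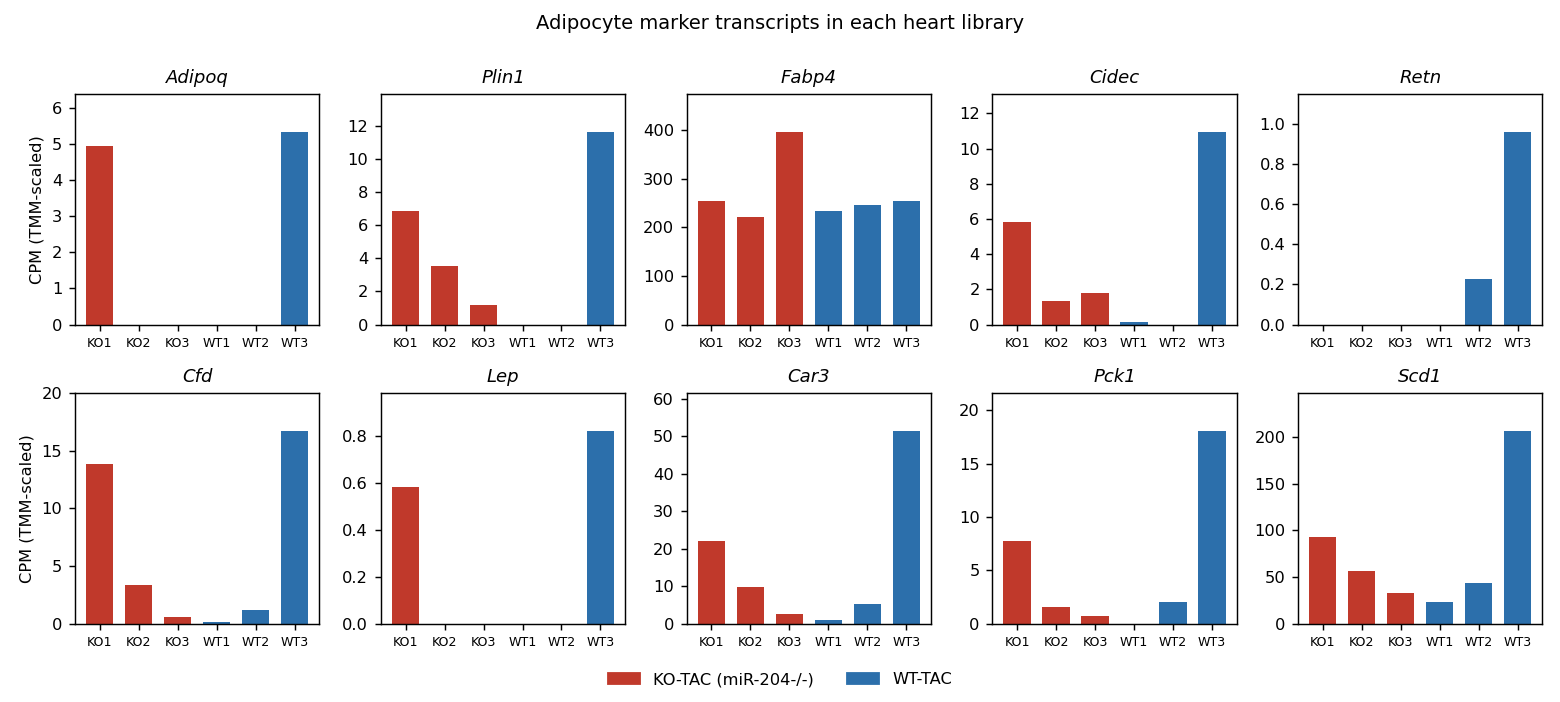
CPM of each of the 10 adipocyte markers (vertical axes, linear, from 0) in the 3 KO-TAC libraries (KO1 to KO3, red) and the 3 WT-TAC libraries (WT1 to WT3, blue); each bar is 1 library. KO1 and WT3 hold the tallest bars for 8 of 10 genes, and Fabp4 is detected throughout, from 221 to 396 CPM.

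Of the secreted products, Cfd and Lep were highest in the same 2 libraries, and Retn was found in WT-TAC alone. Cfd, on chromosome 10 from 79890853 to 79892655 (plus strand), encodes adipsin, the complement factor D protease that fat releases into blood. It had 13.9, 3.40 and 0.590 CPM in KO-TAC and 0.157, 1.15 and 16.7 CPM in WT-TAC. Lep, on chromosome 6 from 29060220 to 29073877 (plus strand), encodes the satiety hormone leptin. It had 4, 0 and 0 counts in KO-TAC and 0, 0 and 6 in WT-TAC, again in KO-TAC replicate 1 and WT-TAC replicate 3 alone. Retn, on chromosome 8 from 3655770 to 3660110 (plus strand), encodes resistin, a hormone made by adipocytes in the mouse. It had 0 counts in all 3 KO-TAC libraries and 0, 2 and 7 in WT-TAC. An exact two-sided permutation test of its CPM over samples gave p = 0.4, where 0.1 is the smallest that 3 against 3 allows. The neutrophil gene S100a9 had 37, 17 and 7 counts in KO-TAC and 45, 6 and 1 in WT-TAC. Neutrophil markers summed to 14.4, 6.19 and 6.49 CPM in KO-TAC and 30.5, 4.58 and 2.32 CPM in WT-TAC. The part of neutrophils in the Retn level was not tested.

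Promoters are shown for the 3 fat-restricted markers and for Lep, which had counts in the same 2 libraries as Adipoq. Cfd, Pck1 and Retn also had an entry and are not shown. Each runs from 250 bases before to 50 bases after the annotated start, 5′ to 3′ on the gene's strand, from RefSeq on GRCm38.p6, and 7 of 10 markers had an entry. Both strands were searched for the TATA box, spelled TATAAA, for the CCAAT box, for the half-site of PPAR receptors, spelled AGGTCA, and for the palindrome bound by C/EBP factors, spelled TTGCGCAA. No match overlaps a match of another motif in these windows, and capitals mark every match.
Adipoq, chr16:23146286-23146585, plus strand: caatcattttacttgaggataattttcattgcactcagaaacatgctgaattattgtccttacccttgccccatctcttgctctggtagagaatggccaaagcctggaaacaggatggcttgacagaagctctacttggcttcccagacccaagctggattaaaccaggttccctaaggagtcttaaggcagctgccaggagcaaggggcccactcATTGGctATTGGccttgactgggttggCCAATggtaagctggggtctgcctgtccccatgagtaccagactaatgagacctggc
Plin1, chr7:79732727-79733026, minus strand: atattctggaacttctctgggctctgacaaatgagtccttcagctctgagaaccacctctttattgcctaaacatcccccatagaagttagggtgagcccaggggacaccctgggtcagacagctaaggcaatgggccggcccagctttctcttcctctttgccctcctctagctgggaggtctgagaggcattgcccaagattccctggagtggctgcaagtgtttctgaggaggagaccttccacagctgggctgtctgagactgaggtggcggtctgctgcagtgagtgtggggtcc
Cidec, chr6:113435711-113436010, minus strand: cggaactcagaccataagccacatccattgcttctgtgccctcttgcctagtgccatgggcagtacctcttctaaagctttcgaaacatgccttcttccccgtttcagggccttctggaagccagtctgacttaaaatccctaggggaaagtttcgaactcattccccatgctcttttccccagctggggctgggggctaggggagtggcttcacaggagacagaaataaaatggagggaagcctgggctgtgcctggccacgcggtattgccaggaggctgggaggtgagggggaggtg
Lep, chr6:29059971-29060270, plus strand: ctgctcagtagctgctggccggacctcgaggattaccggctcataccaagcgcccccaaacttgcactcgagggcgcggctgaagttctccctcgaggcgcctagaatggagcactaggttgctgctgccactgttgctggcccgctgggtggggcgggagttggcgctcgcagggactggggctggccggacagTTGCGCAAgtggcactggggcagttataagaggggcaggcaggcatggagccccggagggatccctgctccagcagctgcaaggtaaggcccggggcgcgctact
The Adipoq window held 3 matches to CCAAT, 2 of them on the opposite strand, and the Lep window 1 match to TTGCGCAA, 55 bases before the start. No match to any of the 4 motifs was in the Plin1 and Cidec windows. The windows not shown, of Cfd, Pck1, Retn and another start of Cidec, held no match either. Over 32851 promoter windows of this length, 37.4% held the CCAAT box, 16.3% the PPAR half-site, 13.6% the TATA box and 0.183% the C/EBP palindrome.

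The enzymes of the set were highest in the same 2 libraries, and Car3 and Scd1 were detected in all 6. Car3, on chromosome 3 from 14863512 to 14872523 (plus strand), encodes carbonic anhydrase 3, which is abundant in fat and in slow skeletal muscle. It stood at 22.0, 9.70 and 2.66 CPM in KO-TAC and at 0.942, 5.16 and 51.2 CPM in WT-TAC. Pck1, on chromosome 2 from 173153048 to 173159273 (plus strand), encodes the phosphoenolpyruvate carboxykinase that makes glycerol for triglyceride in fat and glucose in liver and kidney. Its levels were 7.73, 1.58 and 0.738 CPM in KO-TAC and 0, 2.06 and 18.0 CPM in WT-TAC. The 7 liver markers summed to 2.77, 0.849 and 2.07 CPM in KO-TAC and 1.88, 3.21 and 11.1 CPM in WT-TAC, highest in WT-TAC replicate 3 as Pck1 was. In WT-TAC replicate 3 most of that sum was Cyp2e1, at 9.84 CPM, but in WT-TAC replicate 1 Cyp2e1 stood at 0.157 CPM. Cyp2e1 had 14, 2 and 11 counts in KO-TAC and 1, 20 and 72 in WT-TAC. Alb, named after its values were seen, had 0 to 2 counts in each library. The part of liver transcripts in the Pck1 level was not tested. Scd1, on chromosome 19 from 44394455 to 44407879 (minus strand), encodes the stearoyl-CoA desaturase that makes monounsaturated fatty acids. It had 92.9, 56.9 and 33.0 CPM in KO-TAC and 22.9, 43.6 and 206 CPM in WT-TAC. For Car3, KO-TAC replicate 1 was 3.37 times the other 2 KO-TAC libraries pooled (exact 95% counting interval 2.60 to 4.40) and WT-TAC replicate 3 15.2 times the other 2 WT-TAC libraries (11.3 to 20.8). For Scd1 the same ratios were 2.01 in KO-TAC (1.81 to 2.25) and 5.91 in WT-TAC (5.35 to 6.54).

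Fabp4 did not share this pattern. It encodes the fatty acid binding protein of adipocytes, which capillary endothelium of the heart also makes, and lies on chromosome 3 from 10204088 to 10208576 (minus strand). It had 254, 221 and 396 CPM in KO-TAC and 233, 246 and 254 CPM in WT-TAC. The mean was 290 ± 92.8 CPM in KO-TAC and 244 ± 10.4 CPM in WT-TAC (SD, n = 3 each). WT-TAC replicate 3, the library with the most Adipoq, Plin1 and Cidec, stood at 1.06 times the other WT-TAC libraries pooled (exact 95% counting interval 0.998 to 1.12). On the log2 scale the 3 WT-TAC libraries spanned 0.12 for Fabp4, more than 3.83% of the tested genes did, and 3.16 for Scd1, more than 99.0% of them. The 15 capillary endothelial markers summed to 1640, 1581 and 1268 CPM in KO-TAC and 1266, 1355 and 1104 CPM in WT-TAC. KO-TAC replicate 3, the highest library for Fabp4, was the lowest of its group for the sum of those markers. It was the highest for the sum of 10 genes of fatty acid uptake and binding, at 14100 CPM against 8535 and 9313 CPM in the other KO-TAC libraries. Most of that sum was Lpl, at 6686 CPM, and Fabp3, at 4402 CPM. Gpihbp1, Slc27a4 and Slc2a4 of the same list were lowest in KO-TAC replicate 3 among KO-TAC libraries. The part of endothelium in the Fabp4 level was not tested.

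Across genes, levels can be compared only per length, here in CPM per kilobase of exon. Fabp4 was the highest marker in 6 of 6 libraries by that measure and Scd1 the next in 6 of 6. Mean levels in KO-TAC were 324 CPM per kilobase for Fabp4, 12.6 for Scd1, 6.83 for Car3, 6.45 for Cfd, 1.70 for Cidec, 1.28 for Adipoq, 1.26 for Pck1 and 0.994 for Plin1. In WT-TAC they were 273 for Fabp4, 18.8 for Scd1, 11.4 for Car3, 6.50 for Cfd, 2.52 for Pck1, 2.11 for Cidec, 1.37 for Adipoq and 1.00 for Plin1. Retn and Lep were lowest, at 0 and 0.0597 in KO-TAC and 0.250 and 0.0839 in WT-TAC. Below Scd1, the ranges of neighbours over libraries overlap, and the order varies: Car3 was below Cfd in KO-TAC replicate 1 (13.1 against 15.0) and above it in WT-TAC replicate 3 (30.5 against 18.1).

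No marker passed the test between genotypes. Of the 10 markers, 7 passed the filter on low counts and entered edgeR's quasi-likelihood test, and Adipoq, Lep and Retn did not. None of the 7 reached 0.05 after Benjamini-Hochberg adjustment over the 12487 genes tested, and the smallest adjusted p was 0.999. The test called 0.024% of all tested genes, 0.016% as higher and 0.00801% as lower in KO-TAC. At an unadjusted p under 0.05 there were 0 of these 7, against 366 of all tested genes. DESeq2 and limma-voom also called 0, but DESeq2 gave no p for Cidec. The groups of 0 of the 10 markers were free of overlap, where 7.98% of tested genes had groups that did not overlap. Log2 fold changes of KO-TAC over WT-TAC were 0.25 ± 0.22 (SE) for Fabp4, −0.0076 ± 1.69 for Plin1, −0.016 ± 1.61 for Cfd, −0.32 ± 1.50 for Cidec, −0.58 ± 0.94 for Scd1, −0.74 ± 1.49 for Car3 and −1.01 ± 1.56 for Pck1. Their median was −0.32, against 0.0012 over all tested genes, as a description of the markers that passed the filter. The 95% interval of the fold change ran from 0.853 to 1.66 for Fabp4. It ran from 0.0586 to 16.9 for Plin1 and from 0.123 to 3.64 for Scd1, so changes of several fold in either direction lie within it for markers other than Fabp4.

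Single libraries set the direction of these values. Without WT-TAC replicate 3, all 7 tested markers had positive log2 fold changes, with 5.13 for Cidec, 3.08 for Cfd, 1.86 for Car3, 1.61 for Pck1, 0.87 for Scd1 and 0.28 for Fabp4. Plin1 was at 0 in both WT-TAC libraries left, so its fitted 7.84 depends on the prior count and is no estimate of size. Of the 7, 3 had an unadjusted p under 0.05 and 0 were called, with a smallest adjusted p of 0.614 in edgeR. Without KO-TAC replicate 1, 6 of 7 were negative, from −2.50 for Pck1 to −0.70 for Plin1, and Fabp4 stood at 0.34. Without both libraries 5 markers were tested, and all 5 were positive, with Cidec at 4.20 ± 1.78, Car3 at 1.00 ± 0.85, Scd1 at 0.43 ± 0.36, Fabp4 at 0.37 ± 0.29 and Pck1 at 0.12 ± 1.45. None was called (adjusted p = 0.999 in edgeR for each), and that comparison of 2 against 2 libraries was added after the values were seen and drops the highest library of each genotype for these same genes. Without KO-TAC replicate 3, whose column number is in doubt, 8 markers were tested, 3 were positive and 0 were called.

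**Figure D2:**
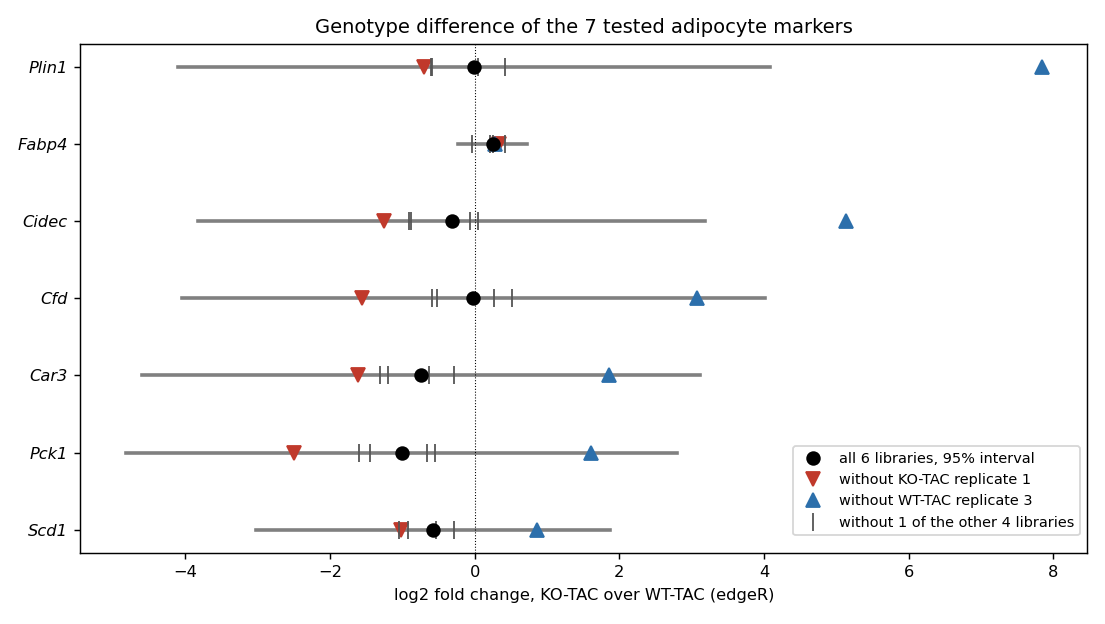
Log2 fold change of KO-TAC over WT-TAC (horizontal axis, edgeR) for the 7 tested markers (rows); black points use all 6 libraries, with grey 95% intervals, triangles leave out KO-TAC replicate 1 (down) or WT-TAC replicate 3 (up), and ticks leave out 1 of the other 4 libraries. Every interval spans 0, and leaving out WT-TAC replicate 3 puts all 7 values above 0.

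The 2 fat-rich libraries did not hold the markers in 1 common ratio. KO-TAC replicate 1 had 0.930 times the Adipoq of WT-TAC replicate 3 (exact 95% counting interval 0.570 to 1.51) and 0.831 times its Cfd (0.629 to 1.10). It had 0.590 times its Plin1 (0.404 to 0.852) and 0.534 times its Cidec (0.356 to 0.789). For Scd1 the ratio was 0.450 (0.410 to 0.494), for Car3 0.430 (0.353 to 0.520) and for Pck1 0.428 (0.305 to 0.594). The intervals of Adipoq and Cfd lie above those of Scd1 and Car3, and these comparisons are between 2 libraries, not genotypes. Of all counts of Adipoq, Plin1 and Cidec, Adipoq took 28.1% in KO-TAC replicate 1 (exact Clopper-Pearson 95% interval 20.3% to 37.0%) and 19.1% in WT-TAC replicate 3 (14.0% to 25.2%). In KO-TAC replicate 2 it took 0 of 40, which allows a share of up to 8.81%, and in KO-TAC replicate 3 0 of 20, which allows up to 16.8%. KO-TAC replicate 2 thus lies below both intervals, whereas KO-TAC replicate 3 overlaps that of WT-TAC replicate 3.

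**Figure D3:**
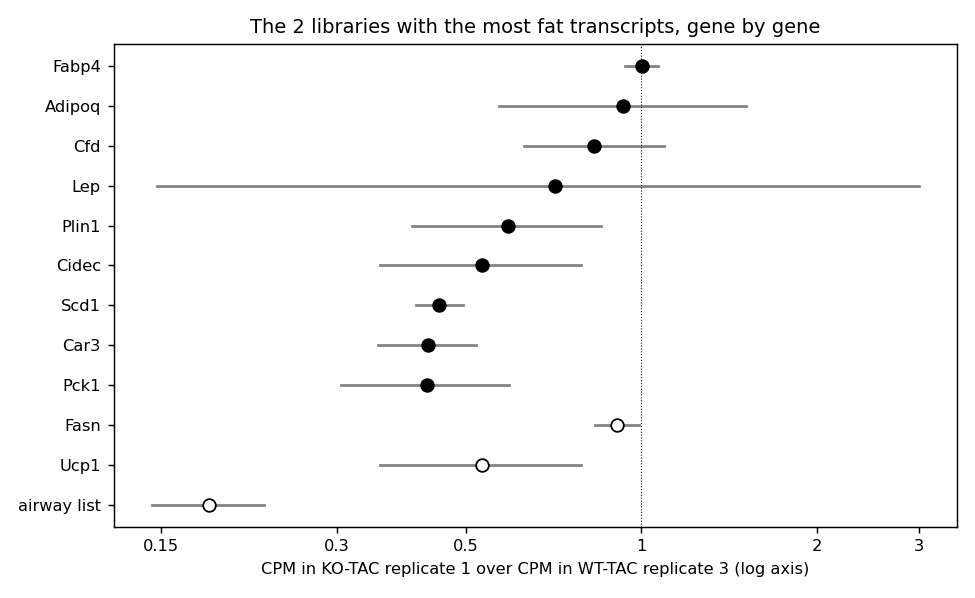
CPM in KO-TAC replicate 1 over CPM in WT-TAC replicate 3 (horizontal axis, log scale) for 9 of the markers (filled points; Retn had no count in KO-TAC replicate 1) and for Fasn, Ucp1 and the summed airway and alveolar list (open points), with exact 95% counting intervals. Fabp4, Adipoq and Cfd lie near 1, Scd1, Car3 and Pck1 near 0.43 to 0.45, and the airway list at 0.181.

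Genes with the profile most like the summed Adipoq, Plin1 and Cidec level were sought over 13550 genes with at least 30 counts in all. Likeness was the mean absolute difference in log2 CPM after centring each gene on its mean over the 6 libraries, so smaller is closer. Plin1 and Cidec, which are part of that sum, were closest at 0.44 and 0.65, with Cfd at 0.91 (rank 4), Car3 at 1.07 (rank 6), Pck1 at 1.17 (rank 8), Adipoq at 1.28 (rank 13) and Scd1 at 1.57 (rank 92), whereas Fabp4 stood at 2.24 (rank 8791). The closest gene outside the 10 markers was Ucp1, the uncoupling protein of brown fat, at 0.78. Its levels were 5.83, 1.46 and 0 CPM in KO-TAC and 0, 0 and 10.9 CPM in WT-TAC, and its log2 fold change was −0.59 ± 1.99 (edgeR adjusted p = 0.999). Thus Ucp1 was seen in the same 2 libraries as Adipoq and, with 12 counts, in KO-TAC replicate 2, where Adipoq had none. Among the next 9 genes were Cyp2f2 at 1.23, Scgb1a1 at 1.27 and Bpifa1 at 1.30, which encode a cytochrome of airway club cells and proteins secreted into airways. The others were Cbr3 at 0.94, Aass at 1.13, Tor2a at 1.27, Clic6 at 1.28, Kctd8 at 1.32 and Fgf6 at 1.34.

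**Figure D4:**
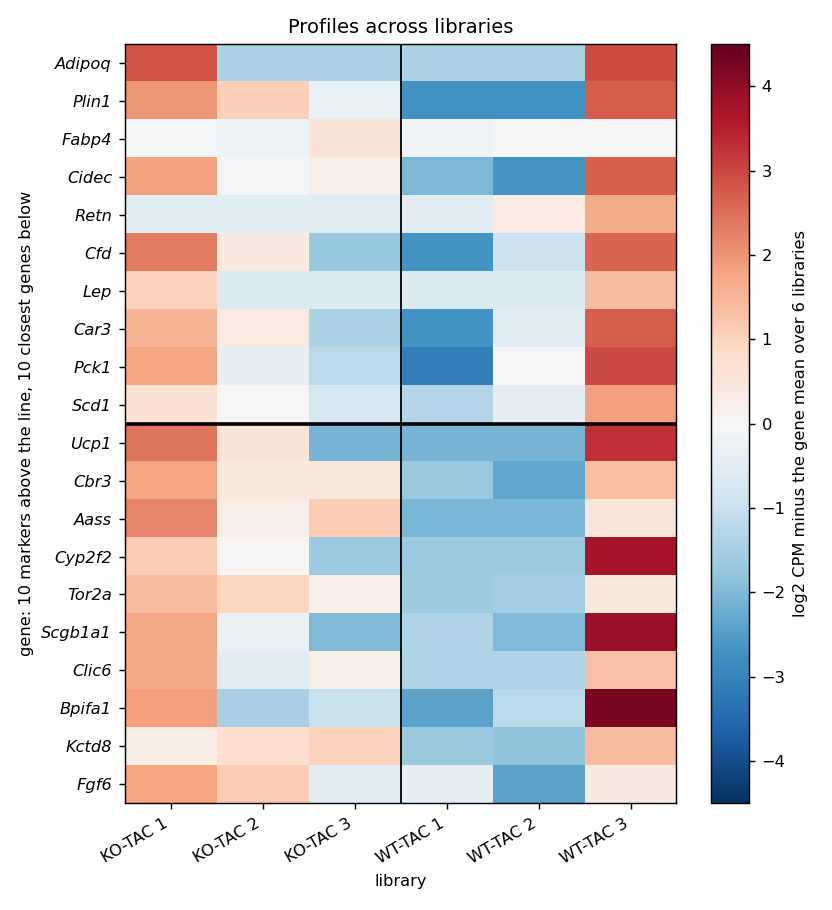
Centred log2 CPM (colour, prior count 2) of the 10 markers (above the line) and the 10 genes closest to the summed Adipoq, Plin1 and Cidec profile (below it) in the 3 KO-TAC libraries (left) and the 3 WT-TAC libraries (right). KO-TAC 1 and WT-TAC 3 are red for most rows, and the Fabp4 row is nearly white.

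Transcripts of airway epithelium were therefore listed as well, in a set of 14 airway and alveolar genes chosen after the values were seen. They summed to 14.0, 3.03 and 1.48 CPM in KO-TAC and 2.04, 1.37 and 77.2 CPM in WT-TAC, and 11 of 14 were highest in WT-TAC replicate 3. Bpifa1 had 33, 2 and 3 counts in KO-TAC and 0, 3 and 197 in WT-TAC, and Scgb1a1 23, 5 and 0 in KO-TAC and 1, 0 and 115 in WT-TAC. The alveolar surfactant genes Sftpa1, Sftpb, Sftpc and Sftpd had 0 to 3 counts in each library. In this list KO-TAC replicate 1 had 0.181 times the level of WT-TAC replicate 3 (0.144 to 0.225), below the interval of every tested marker. Mesothelial and epicardial markers, of the cells that line the heart's surface and the pericardium, summed to 62.4, 28.1 and 18.7 CPM in KO-TAC and 43.9, 25.8 and 103 CPM in WT-TAC, also highest in KO-TAC replicate 1 and WT-TAC replicate 3. Upk3b had 10.5, 3.52 and 1.48 CPM in KO-TAC and 5.34, 6.30 and 27.9 CPM in WT-TAC. Krt19 had 5.54, 2.18 and 3.69 CPM in KO-TAC and 4.87, 1.37 and 12.7 CPM in WT-TAC. Bnc1, with the smallest p of that list, had 1.75, 0.121 and 1.33 CPM in KO-TAC and 4.08, 2.29 and 4.37 CPM in WT-TAC. For Bnc1 every KO-TAC library, replicate 1 among them, was below every WT-TAC library (adjusted p = 0.999 in edgeR). Groups did not overlap in 7.98% of tested genes. Fast skeletal muscle markers summed to 116, 67.2 and 27.3 CPM in KO-TAC and 79.3, 71.8 and 87.6 CPM in WT-TAC, with Mylpf at 0 in all libraries and Myl1 at 109, 59.4 and 25.1 CPM in KO-TAC and 70.3, 67.6 and 80.8 CPM in WT-TAC. In that list Atp2a1, named after its values were seen, had 11, 2 and 4 counts in KO-TAC and 0, 5 and 19 in WT-TAC, and markers of slow skeletal muscle, which makes Car3, were not listed. The part of these tissues in the marker levels was not tested.

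**Figure D5:**
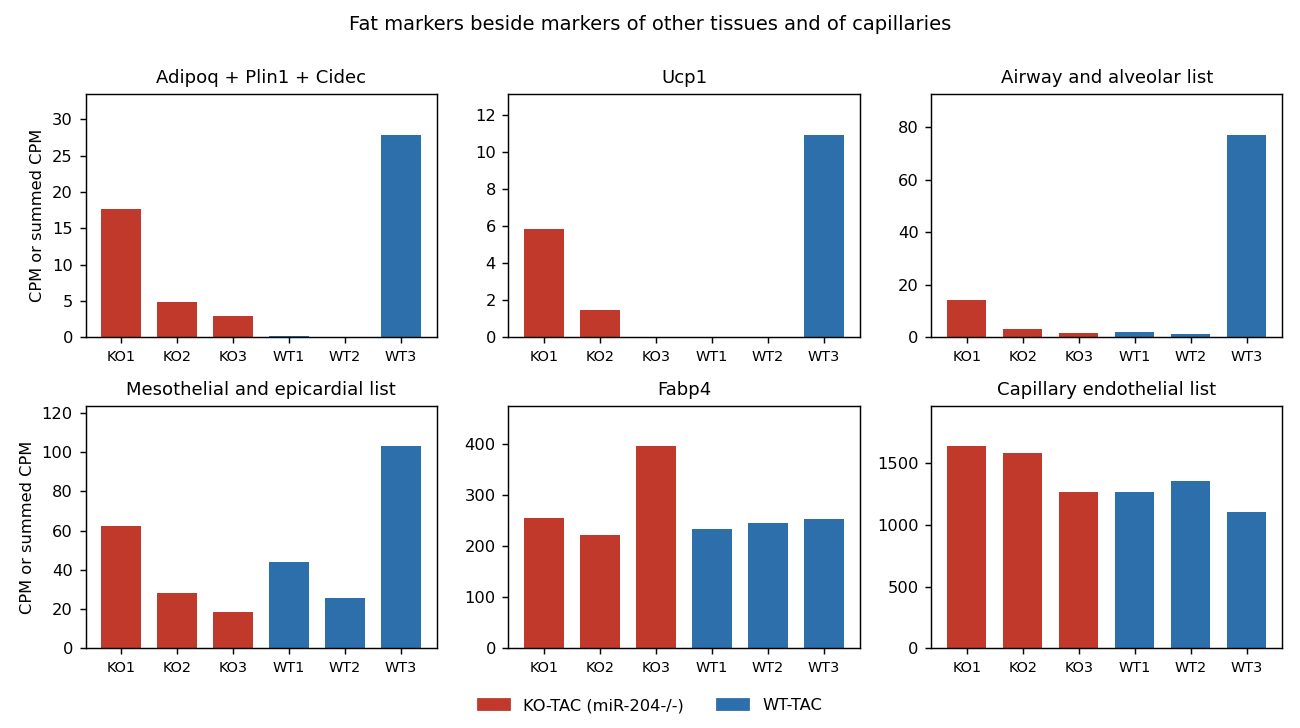
CPM or summed CPM (vertical axes, linear, from 0) per library, KO-TAC in red and WT-TAC in blue, for the summed Adipoq, Plin1 and Cidec, for Ucp1, for the airway and alveolar list, for the mesothelial and epicardial list, for Fabp4 and for the capillary endothelial list. The first 4 panels are highest in WT3, with KO1 next, and the last 2 do not have that order.

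Other genes of fat were grouped by role in lists chosen with earlier results of these data known. Over 20 lists, which include markers of other cell types, 159 genes beside the markers entered the test and 0 passed it. White adipocyte genes had 18 members, of which 13 were tested, 8 with positive and 5 with negative log2 fold changes and a median of 0.042. The smallest p values belonged to Pparg, the master regulator of adipocyte differentiation, at 0.62 ± 0.34, Aqp7, a glycerol channel, at 0.60 ± 0.43, and Cebpa, another transcription factor of that differentiation, at −0.64 ± 0.56. Pparg had 11.4, 13.5 and 11.4 CPM in KO-TAC and 7.69, 5.61 and 10.2 CPM in WT-TAC. Every KO-TAC library was above every WT-TAC library, where 7.98% of tested genes had groups that did not overlap. WT-TAC replicate 3 was highest in its group, and the adjusted p of Pparg was 0.999 in edgeR. Lgals12, a droplet-bound galectin of fat, was named after its values were seen, and had 13, 1 and 0 counts in KO-TAC and 0, 1 and 16 in WT-TAC.

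Brown and beige fat genes had 7 of 10 tested, 6 positive and 1 negative, with a median of 0.13. Cidea stood at 0.51 ± 0.27, Dio2, which activates thyroid hormone, at 0.80 ± 0.73, and Kcnk3 at 0.17 ± 0.20. These genes, unlike Ucp1, were present in every library, with Kcnk3 at 231, 233 and 298 CPM in KO-TAC and 186, 252 and 239 CPM in WT-TAC. Of 17 genes of fatty acid and triglyceride synthesis 16 were tested, 12 positive and 4 negative, with a median of 0.21. Srebf1, the sterol-responsive regulator of lipogenesis, was at 0.55 ± 0.26, Elovl5 at 0.46 ± 0.26 and Mlxipl at 0.43 ± 0.29. Fasn, fatty acid synthase, was named after its values were seen, at 142, 65.6 and 28.9 CPM in KO-TAC and 30.9, 46.4 and 157 CPM in WT-TAC. Fasn and Lgals12 were picked by their values and do not stand for their lists. In the white adipocyte list, Acvr1c had 5, 3 and 7 counts in KO-TAC and 0, 0 and 21 in WT-TAC. Adig had 11, 1 and 10 counts in KO-TAC and 0, 0 and 13 in WT-TAC. Adrb3 had 1, 1 and 3 in KO-TAC and 0, 0 and 6 in WT-TAC. Lipe, by contrast, had 172, 213 and 283 counts in KO-TAC and 185, 261 and 201 in WT-TAC. All of these were named after their values were seen. Measured by likeness to the summed Adipoq, Plin1 and Cidec profile, 0 of 16 white adipocyte genes and 0 of 16 synthesis genes with enough counts were within 1. Of 7 brown and beige fat genes 1 was, Ucp1. Over all 13550 genes only 5 were within 1, so 0 of 16 does not set a list apart from other genes. Medians were 2.07 for white adipocyte and 2.02 for synthesis genes, against 2.18 over all genes. The measure depends on how far a gene varies, so these medians do not show whether a list follows the profile.

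Lipid droplet and lipolysis genes were tested for 15 of 15, 10 positive and 5 negative, with a median of 0.099. Mgll, the monoglyceride lipase, had 90.5, 91.7 and 99.3 CPM in KO-TAC and 55.6, 70.6 and 58.9 CPM in WT-TAC. Mgll was named for the smallest p of that list, and its groups did not overlap, as in 7.98% of tested genes. Its log2 fold change of 0.60 ± 0.18 had an unadjusted p of 0.00487 and an adjusted p of 0.999 in edgeR. Plin3, a droplet coat protein found in many cells, was at 0.50 ± 0.20. Fatty acid uptake and binding genes were tested for 10 of 10, 9 positive and 1 negative, with a median of 0.20, among them Gpihbp1 at 0.46 ± 0.28, Fabp5 at 0.34 ± 0.26 and Lpl at 0.30 ± 0.27. Of 14 genes for receptors of fat hormones and their partners, all tested, 7 were positive and 7 negative. The insulin receptor substrates Irs2 and Irs1 were at 0.78 ± 0.27 and 0.61 ± 0.27, and Cdh13, a receptor for adiponectin, at 0.49 ± 0.22. Adipocyte progenitor and mesenchymal genes had 11 of 12 tested, 6 positive and 5 negative, with Icam1 at 0.90 ± 0.46, Pi16 at 0.74 ± 0.40 and Col15a1 at 0.52 ± 0.38. None of the genes in these lists passed the test over all genes.

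Among markers of other cell types 0 genes were called in any list. Capillary endothelial markers had 13 of 15 positive and a median of 0.22, with Cldn5 at 1.04 ± 0.37 and Kdr at 0.56 ± 0.20. Mesothelial and epicardial markers had 8 of 9 negative and a median of −0.67. Smooth muscle markers had 6 of 8 negative and a median of −0.64, and atrial markers 7 of 7 negative and a median of −0.38. Over all tested genes, 50.2% of log2 fold changes were positive. Atrial markers summed to 8072, 5810 and 572 CPM in KO-TAC and 9049, 3258 and 3824 CPM in WT-TAC. Only KO-TAC replicate 3, whose column number is in doubt, lay below every WT-TAC library in that sum. Smooth muscle markers summed to 3988, 6178 and 3323 CPM in KO-TAC and 4739, 4120 and 3413 CPM in WT-TAC, so these groups overlapped. The smallest p of the atrial list belonged to Nr2f2, at −0.72 ± 0.20, and that of the smooth muscle list to Lmod1, at −1.50 ± 0.49. Medians were 0.018 for macrophage, −0.20 for Schwann and nerve, 0.053 for lymphatic endothelial, −0.091 for fast skeletal muscle and 0.084 for ventricular myocyte markers. The macrophage median covers Ccr2 at −1.91 ± 0.53, Mrc1 at 0.22 ± 0.24 and C1qb at −0.23 ± 0.28, its smallest p values. Not every gene that the naming rule picked is given here. Of the neutrophil list 2 genes were tested, of the liver list 1 and of the B and T cell list 0.

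The mature 5p form of miR-204, the microRNA named in the KO-TAC genotype, is shown with its seed, bases 2 to 8, in capitals, as held by RefSeq on GRCm38.p6 (chromosome 19 from 22750610 to 22750631, plus strand), because a match to the seed in a 3' UTR is how a microRNA finds its targets.
miR-204-5p: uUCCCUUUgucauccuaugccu
The 7-base match to this seed, AAAGGGA, was absent from the longest annotated 3' UTR of all 10 markers, against a share of 15.1% of 19496 genes of the table whose longest 3' UTR holds it. These UTRs ran from 69 bases in Cfd to 3464 in Scd1.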

How the data were processed

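RNA of 6 mouse heart samples was sequenced from Illumina TruSeq libraries, made with a plain or a stranded kit per the labels' protocols. The authors deposited unnormalized read counts for each gene symbol. Tools named in the submitters' processing notes are HISAT2 2.1.0, Subread, FastQC and edgeR, and builds are GRCm38 and mm10, with no step tied to any of them. All columns were used. KO-TAC replicate 3 was assigned by its library index, since the number beside it differs from its label. Totals ran from 6411538 to 8571737 counts, and counting intervals cover counting error only.

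The test was edgeR 4.0.16 (R 4.3.3) with filterByExpr (minimum count 10), TMM scaling, a robust quasi-likelihood fit of genotype with no covariate, two-sided, Benjamini-Hochberg adjusted over all 12487 tested genes, threshold 0.05. The common biological coefficient of variation was 0.286. Standard errors divide the log2 fold change by the root of the F statistic, and intervals use the test's own t quantile. Log2 CPM used a prior count of 2. The fit was also run on simulated counts with known changes. Each gene was drawn on its own there, so that run does not check patterns that genes share within a library. Lengths, positions and 3' UTRs come from GENCODE M21 (GRCm38), where 23309 symbols matched and 667 more by an older symbol; exon length is that of merged basic-set exons. No annotated gene overlaps a marker.

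The markers, lists and naming rule (the 3 smallest p values per list and the 10 closest profiles) were chosen with earlier results of these data known. Alternatives tried were unscaled, upper-quartile and RLE libraries, 2 other filters, DESeq2 1.42.0, limma-voom (limma 3.58.1), the replicate number as a block and each library left out.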

Additional observations from a re-analysis of the deposited data

How the results depend on the processing

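Under all alternatives run, 0 of the tested markers were called in either direction, and DESeq2 gave no p for Cidec. Left-out libraries moved the rest. With 1 library left out, the median log2 fold change of tested markers ran from −1.25 to 1.86 and the log2 ratio of summed Adipoq, Plin1 and Cidec from −1.26 to 6.76 (−0.14 with all libraries), the high ends without WT-TAC replicate 3, where WT-TAC has 1 count of these genes. Log2 fold changes ran from −0.70 to 7.84 for Plin1, −1.25 to 5.13 for Cidec, −1.56 to 3.08 for Cfd, −1.61 to 1.86 for Car3, −2.50 to 1.61 for Pck1, −1.05 to 0.87 for Scd1 and −0.040 (without KO-TAC replicate 3) to 0.41 for Fabp4. Without KO-TAC replicate 1 and WT-TAC replicate 3, an alternative chosen after seeing the data and from these same genes, the log2 ratio was 5.64, against 1 count in WT-TAC, and the signs of Cidec (4.20), Car3 (1.00), Pck1 (0.12) and Scd1 (0.43) turned; Plin1 and Cfd were not tested there. Limma-voom turned Plin1 (3.17), Cidec (2.29), Cfd (0.85), Car3 (0.30) and Pck1 (0.38), and upper-quartile scaling Plin1 (0.010) and Cfd (0.0043); the cause was not tested. Same-numbered samples were not taken as paired: their deviations correlated at 0.135, 0.0110 and 0.257, not all over 0.1. KO-TAC replicates 1 and 3 correlated best with their own number, a hint from the data and not the design, and KO-TAC replicate 2 with WT-TAC replicate 1. With the replicate number as a block 6 genes were called over all genes, none of them a marker, and Plin1 (2.28), Cidec (1.58), Cfd (0.87) and Car3 (0.34) turned positive. Over all genes DESeq2 called 16, edgeR without a filter 21 and limma-voom 0, against 3. The filter on low counts removed Adipoq, Lep and Retn; Adipoq, with counts in 1 library of each genotype, entered the test when any 1 of the other 4 libraries was left out. A filter of 1 CPM in all libraries left Fabp4 and Scd1 alone.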
